A study of Homo sapiens with 6 samples.

Results

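Cytosolic ribosomal protein genes encode the proteins of the small (RPS genes) and large (RPL genes) subunit of the ribosome that translates messenger RNA in the cytoplasm. The members described here are the genes whose symbol has the RPL or RPS form, or is RPLP0, RPLP1, RPLP2 or RPSA, with a mean of at least 20 TPM (a StringTie level that takes account of transcript length and library size) over all libraries. They number 82 of the 26475 genes listed, 32 of the small and 50 of the large subunit, and 77 are core proteins while 5 are paralogs (RPS27L, RPL22L1, RPL26L1, RPL39L and RPL7L1). Of the 84 symbols that have the form, RPL3L, at 0 TPM, and RPL10L, at 0.0183 TPM, fell below the minimum, and the members nearest to it were RPL22L1, at a mean of 53.4 TPM, and RPL7L1, at 63.9 TPM. FAU, which encodes a ribosomal protein fused to a ubiquitin-like protein, does not have the form and is described separately.

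The libraries came from 6 RNA samples of human lung cancer cells, 2 each of PC9-AMG, PC9-BrM4 and PC9, and all of them, PC9 included, had been cultured in MGS. PC9 is a widely used lung adenocarcinoma cell line from which, by their names, the other lines derive. What BrM4, AMG and MGS stand for is not spelled out in the labels. The labels do not say whether both libraries of a group came from separate cultures, so p-values measure only the spread between these libraries, which may be technical. The labels also write "mix" in each library's name without saying what was mixed.

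In growing cells these genes are among the most strongly expressed of all, and they are controlled together, since a ribosome needs 1 copy of nearly every protein. Their mRNAs typically begin with a cytosine followed by a run of pyrimidines, the 5′ terminal oligopyrimidine or TOP motif, through which mTOR signalling controls their translation. Many of the genes also carry small nucleolar RNA genes in their introns, and some of the proteins have roles outside the ribosome, such as the binding of MDM2 by RPL5 and RPL11.

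The start of the transcript was read from the RefSeq promoter table (assembly GRCh38.p14), which held 66 of the 82 members. A window of 25 bases, from 10 before the start base to 15 from it on, was searched on the gene's strand for a C at the start base with at least 4 further C or T bases after it. A gene with several listed starts was counted where any of them had such a run. Of the 66 members, 47 (71.2%) had such a start, against 1357 of 27239 other symbols (4.98%). The share was 18 of 25 (72.0%) in the small and 29 of 41 (70.7%) in the large subunit. The windows below belong to members with the largest differences between the cell lines, which begin with such a run, and to RPS26, RPL27 and 3 paralogs, whose listed start has none. Capitals mark the unbroken run of pyrimidines from the start base.
RPS16 (chr19:39435935-39435959, minus strand): ccctagctttCCTTTTCCggttgcg
RPS19 (chr19:41860245-41860269, plus strand): ccccgtcgttCCCTTTCCCCTggct
RPL13A (chr19:49487598-49487622, plus strand): aaacctcctcCTTTTCCaagcggct
RPL28 (chr19:55385922-55385946, plus strand): cctcgccttcCTCTTTCCgtctcag
RPL38 (chr17:74203668-74203692, plus strand): aagtctcgttCTTTTTCgtcctttt
RPL41 (chr12:56116623-56116647, plus strand): cttcgcctttCTCTCggccttagcg
RPL22L1 (chr3:170870181-170870205, minus strand): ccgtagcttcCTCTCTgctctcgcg
RPS26 (chr12:56041908-56041932, plus strand): acataacctcgattttcttccgcca
RPL27 (chr17:42998409-42998433, plus strand): gtgaaaggttagcggaagtgtcctt
RPS27L (chr15:63157463-63157487, minus strand): gatgccgagcgcagatcgcttgcag
RPL26L1 (chr5:172958719-172958743, plus strand): tccaggggtcggcgaacgaaacgcg
RPL7L1 (chr6:42879606-42879630, plus strand): gtgcggcgccgtagctaggagcgga

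The members made up 16.1% and 17.3% of all TPM in the PC9-AMG libraries, 12.4% and 13.9% in the PC9-BrM4 libraries, and 14.9% in each PC9 library. Their summed level was 160925 and 172691 TPM in PC9-AMG, 124195 and 139393 TPM in PC9-BrM4, and 148807 and 149128 TPM in PC9. The groups did not overlap, with PC9-AMG highest and PC9-BrM4 lowest. Since TPM adds up to the same total in every library, a larger share of these genes leaves a smaller share for the rest, and in bulk RNA fewer cells of a type and less RNA per cell cannot be told apart.

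**Figure D1:**
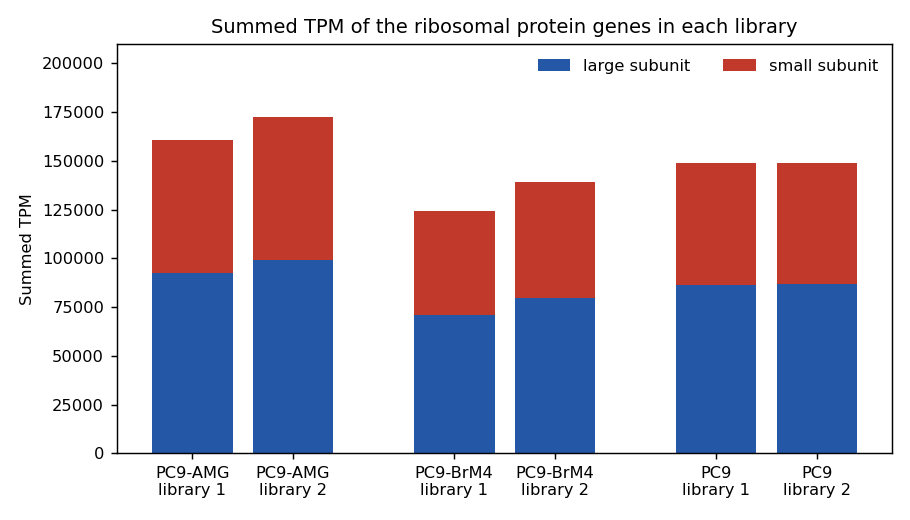
Summed TPM (vertical axis, from 0) of the 82 ribosomal protein genes in each library, divided into large (blue) and small (red) subunit genes. Both PC9-AMG libraries lie above, and both PC9-BrM4 libraries below, the PC9 libraries, and the small subunit takes a like part of every bar.

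The libraries of PC9-BrM4 stood further apart than those of PC9. Of the 82 members, 80 were higher in PC9-BrM4 library 2 than in library 1, with a median log2 difference of 0.17, while the median of all tested genes was -0.11. In PC9-AMG, 72 members were higher in library 2 than in library 1 (median 0.11, all tested genes -0.04), and in PC9 the number was 42 (median 0.00). Results are therefore also given with single libraries left out.

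Single members ranged 77.0-fold in level. RPS18, a protein of the small subunit head, averaged 4110 TPM over all libraries and RPL8, of the large subunit, 3957 TPM. RPL35A, RPL39 and RPL24 followed, and 66 members averaged at least 1000 TPM. Under 200 TPM were 6 members, namely RPL27A (183 TPM) and the 5 paralogs. Levels of single members are uncertain where processed pseudogenes share their sequence: 77 members had at least 1 pseudogene named after them in GENCODE release 29, the median was 9, and RPL23A had the most, 91. RPL21 is the sum of 2 loci, on chromosomes 10 and 13.

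The subunits kept nearly the same proportion in all libraries. The ratio of small to large subunit TPM was 0.738 and 0.743 in PC9-AMG, 0.746 and 0.753 in PC9-BrM4, and 0.722 and 0.718 in PC9. The ratio was higher in each of the 4 libraries of PC9-AMG and PC9-BrM4 than in either PC9 library. The small minus large difference of the median log2 differences was -0.02 for PC9-AMG against PC9-BrM4, 0.02 for PC9-BrM4 against PC9 and 0.07 for PC9-AMG against PC9. Taken as the median log2 level of the small minus that of the large subunit within each library, the difference was 0.15 and 0.21 in PC9-AMG, 0.30 and 0.28 in PC9-BrM4, and 0.26 and 0.23 in PC9. PC9-AMG was thus below PC9 by this summary and above it by the others, and no direction is given for the balance of the subunits between them.

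PC9-AMG and PC9-BrM4 differed most. Of the 82 members, 48 were higher and 0 lower in PC9-AMG at an adjusted p under 0.05 (limma, Benjamini-Hochberg over 14627 genes), where 6.31% of all tested genes were higher and 12.3% lower. The median log2 difference was 0.30 in the members and -0.13 in all tested genes. The level of 72 members lay higher in both PC9-AMG libraries than in both PC9-BrM4 libraries, against 19.0% of all tested genes, and 0 lay lower, against 40.5%. The small subunit had 17 of 32 members higher, with a median of 0.29, and the large subunit 31 of 50, with a median of 0.31.

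Of the 48, RPS26, which lies near the mRNA exit of the small subunit and is mutated in some families with Diamond-Blackfan anemia, differed most. It had 417 and 468 TPM in PC9-AMG, 184 and 209 TPM in PC9-BrM4, and 382 and 391 TPM in PC9. PC9-BrM4 was low and the other lines lay close together. The difference between PC9-AMG and PC9-BrM4 was 1.17 on the log2 scale (SE 0.0947, adjusted p = 6.2e-05, limma). RPL41, one of the smallest proteins known in human cells, had 1822 and 2099 TPM in PC9-AMG, 894 and 1180 TPM in PC9-BrM4, and 1690 and 1743 TPM in PC9. It showed the same order, with no overlap between groups, and a difference of 0.93 between the derivatives (SE 0.12, adjusted p = 9.2e-04, limma).

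RPS16, a protein of the small subunit head, had 3723 and 4053 TPM in PC9-AMG, 2061 and 2462 TPM in PC9-BrM4, and 2870 and 2886 TPM in PC9. PC9-AMG was high and PC9-BrM4 low, with PC9 between them, and the difference between the derivatives was 0.79 (SE 0.0883, adjusted p = 4.1e-04, limma). RPL28, of the large subunit, had 642 and 592 TPM in PC9-AMG, 352 and 397 TPM in PC9-BrM4, and 472 and 478 TPM in PC9, a difference of 0.72 (adjusted p = 6.1e-04, limma). Both genes kept PC9 between the derivatives and passed the test against PC9 in both.

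RPS19, the gene most often mutated in Diamond-Blackfan anemia, had 2296 and 2484 TPM in PC9-AMG, 1337 and 1577 TPM in PC9-BrM4, and 1939 and 1908 TPM in PC9. The derivatives differed by 0.72 (adjusted p = 6.1e-04, limma). RPL38, which in the mouse is needed for the translation of a set of Hox mRNAs, had 1906 and 2113 TPM in PC9-AMG, 1128 and 1322 TPM in PC9-BrM4, and 1386 and 1306 TPM in PC9. In RPL38 the PC9-BrM4 and PC9 libraries overlapped and only PC9-AMG stood apart, 0.72 above PC9-BrM4 (adjusted p = 8.2e-04, limma). RPL13A, a large subunit protein also known from the interferon-gamma-activated inhibitor of translation complex, had 3454 and 3743 TPM in PC9-AMG, 2109 and 2399 TPM in PC9-BrM4, and 3088 and 3108 TPM in PC9, and differed by 0.68 between the derivatives (adjusted p = 4.8e-04, limma). RPS26, RPL41, RPS16, RPL28, RPS19, RPL38 and RPL13A passed in this comparison in all 22 alternative settings.

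**Figure D2:**
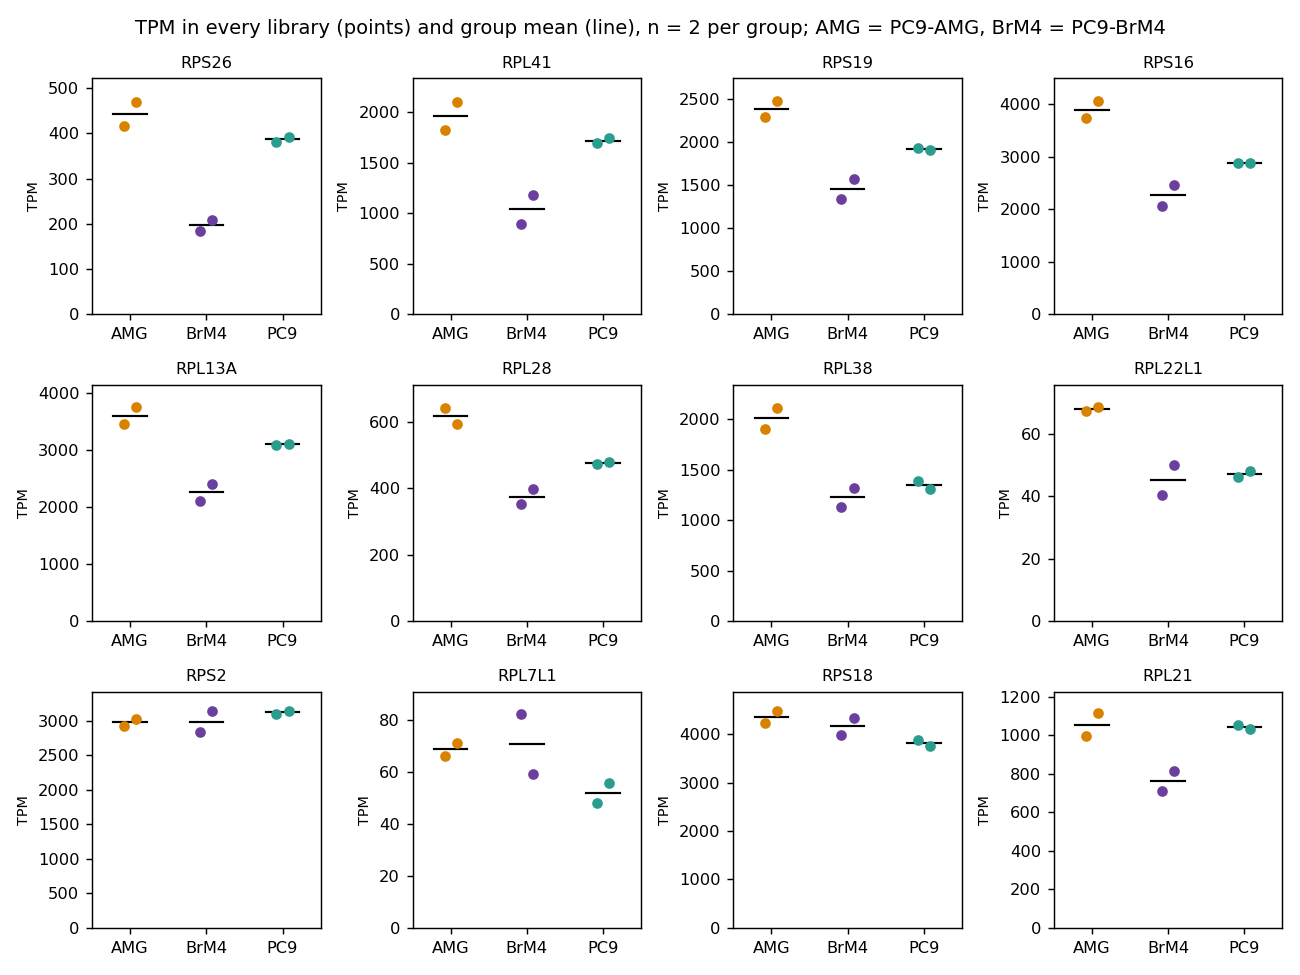
TPM of 12 ribosomal protein genes in every library (points), with the group mean (line) of 2 libraries each of PC9-AMG, PC9-BrM4 and PC9; each panel has its own vertical axis from 0. RPS26, RPL41, RPL13A and RPL21 are low in PC9-BrM4, RPL38 and RPL22L1 are high in PC9-AMG, and RPS2 overlaps between PC9-AMG and PC9-BrM4.

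Among the abundant members, RPL24 (0.51), RPL35A (0.38) and RPL8 (0.35) were higher in PC9-AMG than in PC9-BrM4. RPS18, the most abundant, had 4240 and 4474 TPM in PC9-AMG, 3994 and 4327 TPM in PC9-BrM4, and 3872 and 3754 TPM in PC9, and its derivatives overlapped (difference 0.07, adjusted p = 0.51, limma). RPS2 had 2917 and 3028 TPM in PC9-AMG, 2830 and 3134 TPM in PC9-BrM4, and 3091 and 3144 TPM in PC9, with a difference of -0.003 between the derivatives (adjusted p = 0.98, limma). Neither passed the test that 48 members passed.

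The stalk proteins RPLP0, RPLP1 and RPLP2, which recruit elongation factors to the large subunit, had differences between 0.22 and 0.37, against a median of 0.30 over all members. RPLP2 had 1367 and 1382 TPM in PC9-AMG, 1020 and 1112 TPM in PC9-BrM4, and 1194 and 1196 TPM in PC9, and was 0.37 higher in PC9-AMG than in PC9-BrM4 (adjusted p = 0.0073, limma). RPLP1 was 0.28 higher (adjusted p = 0.043, limma), though at -0.003 when log2 values were centred on the median of the members, and RPLP0 differed by 0.22 (adjusted p = 0.077, limma). RPSA, a small subunit protein also known as the laminin receptor, was 0.26 higher (adjusted p = 0.042, limma), and at -0.02 after that centring. Of the MDM2-binding proteins, RPL11 was 0.23 higher (adjusted p = 0.045, limma), and at -0.04 after that centring, while RPL5 differed by 0.16 (adjusted p = 0.14, limma). RPS6, the substrate of the S6 kinases, differed by 0.24 (adjusted p = 0.073, limma), and RPS14, whose loss is known from the 5q- syndrome, by 0.28 (adjusted p = 0.058, limma).

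Centring log2 values on the median of the members, an alternative added after seeing the data, takes away what the members share. With it, 19 members were called above and 5 below their common level in PC9-AMG against PC9-BrM4 (limma, adjusted p under 0.05). The 5 were RPS2, RPS18, RPL37, RPL4 and RPS25. Of all tested genes, 2.30% were called above and 34.4% below. The count of 48 was 13 when the variance was moderated without a trend and 24 without a filter on low values. It was 22 without PC9-BrM4 library 1, 58 without PC9-BrM4 library 2, 42 without PC9-AMG library 1 and 19 without PC9-AMG library 2, and 35 without either PC9 library.

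**Figure D3:**
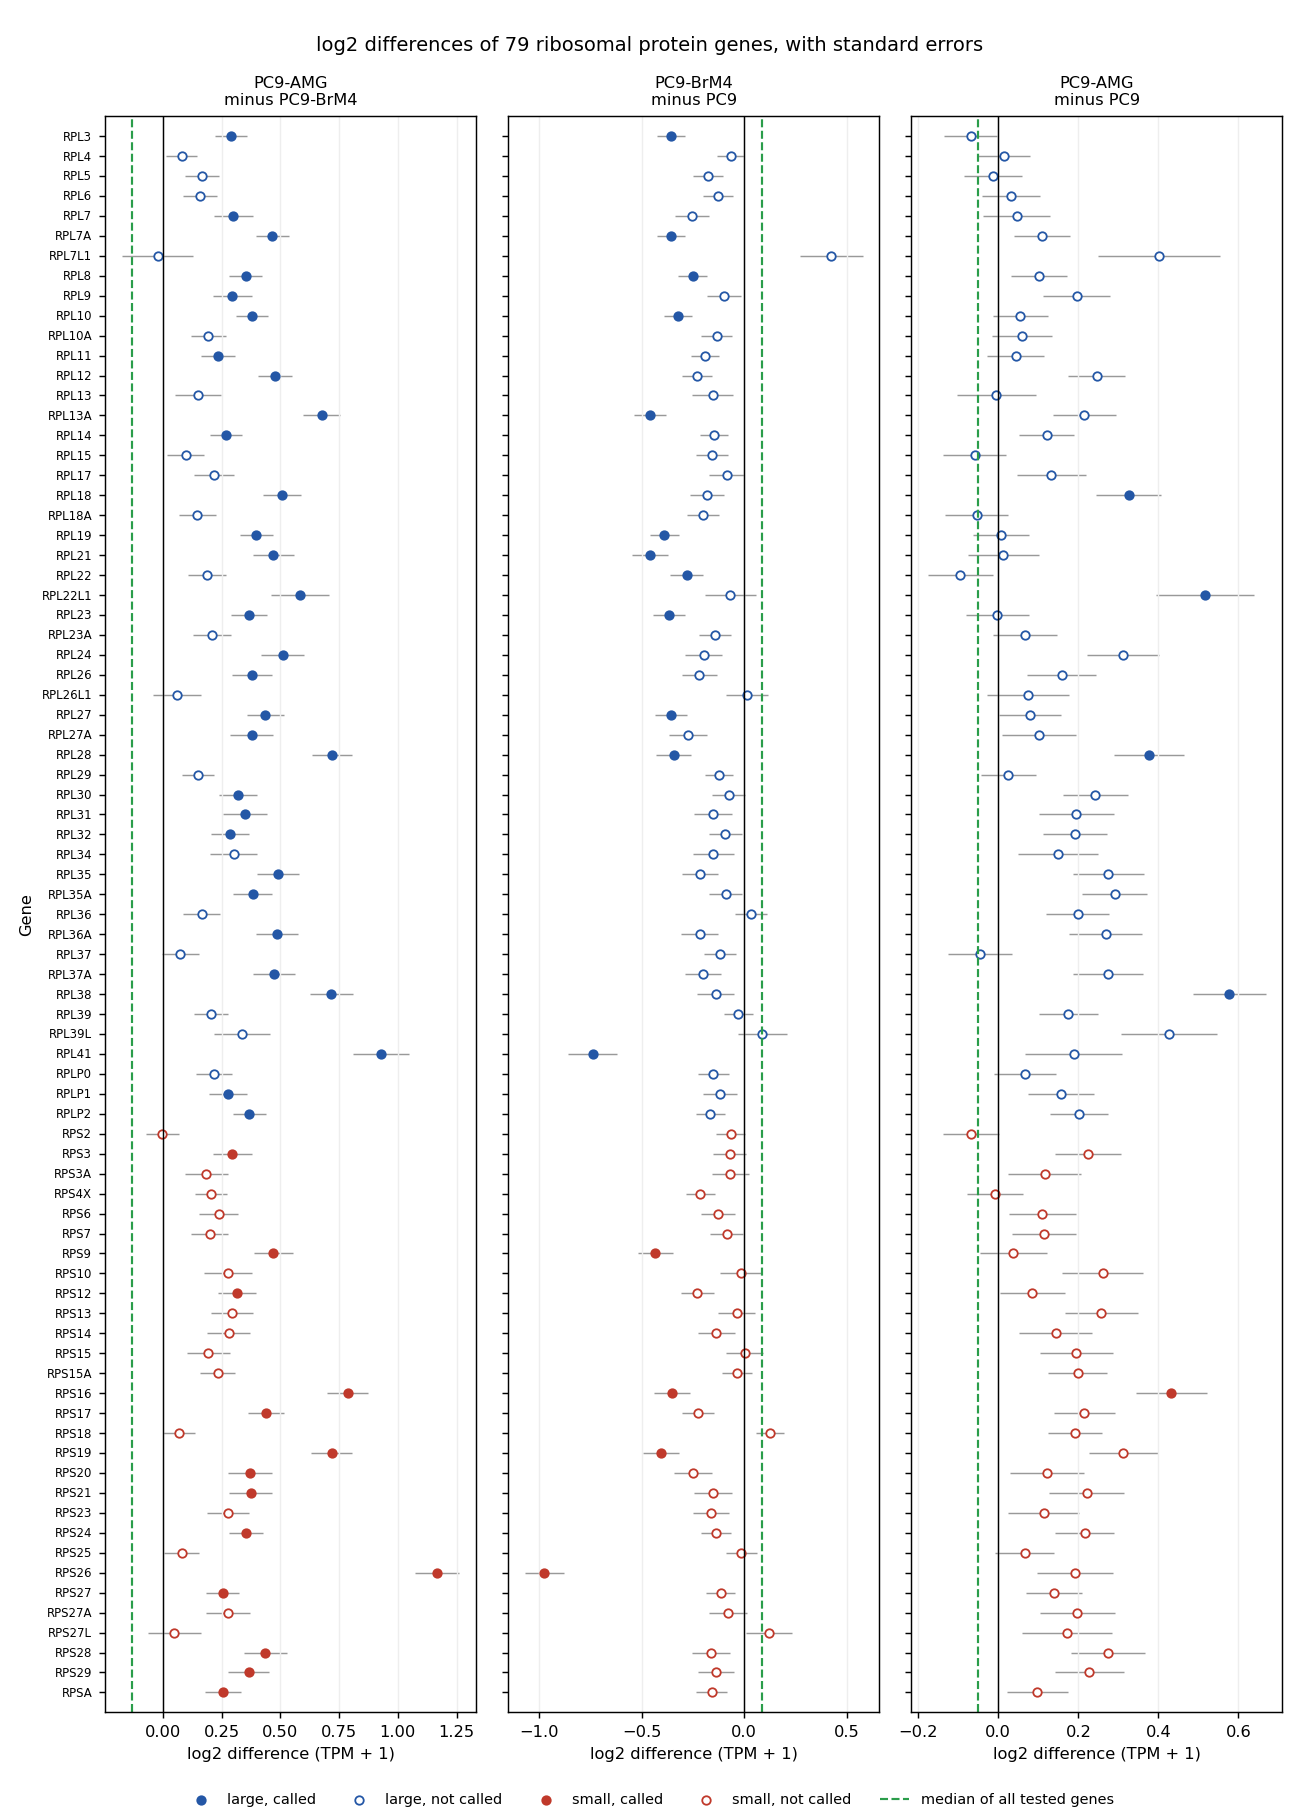
log2 difference of TPM + 1 (horizontal axis, with its standard error) of 79 of the 82 ribosomal protein genes (vertical axis) for PC9-AMG minus PC9-BrM4, PC9-BrM4 minus PC9 and PC9-AMG minus PC9; filled points had an adjusted p under 0.05 (limma), blue is the large and red the small subunit, and the dashed line is the median of all tested genes. Nearly all points lie right of 0 in the first panel and left of it in the second, most lie right of it in the third, and RPS26 and RPL41 stand out in the first and second.

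Against PC9, PC9-BrM4 had 18 members lower and 0 higher (limma, adjusted p under 0.05), where 6.45% of all tested genes were lower and 9.89% higher. The median log2 difference was -0.15 in the members and 0.09 in all tested genes. The level of 58 members lay lower in both PC9-BrM4 libraries than in both PC9 libraries, against 21.9% of all tested genes, and 3 lay higher, against 39.2%. The small subunit had 6 of 32 members lower (median -0.14) and the large subunit 12 of 50 (median -0.16).

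RPS26 fell by 0.98 on the log2 scale in PC9-BrM4 against PC9 (SE 0.0947, adjusted p = 1.6e-04, limma) and RPL41 fell by 0.74 (SE 0.12, adjusted p = 0.0032, limma). Both passed in all 22 alternative settings. RPL13A fell by 0.46 (adjusted p = 0.0039, limma). RPL21 had 996 and 1115 TPM in PC9-AMG, 711 and 814 TPM in PC9-BrM4, and 1055 and 1035 TPM in PC9, and fell by 0.46 in PC9-BrM4 against PC9 (adjusted p = 0.0078, limma). RPS19 fell by 0.40, RPL19 by 0.39, RPL23 by 0.37, RPL3, which reaches the peptidyl transferase centre, by 0.36, RPL7A by 0.36 and RPL27 by 0.36. Among the remaining falls were those of RPS9, RPS16, RPL28, RPL10, RPL22 and RPL8, the smallest being RPL8 at -0.25 (adjusted p = 0.039, limma).

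The median of the members was -0.068 without PC9-BrM4 library 1 and -0.24 without PC9-BrM4 library 2, against -0.15 as reported. It stayed near that value without PC9 library 1 (-0.155) and without PC9 library 2 (-0.160). The count of 18 changed with the settings. That count was 2 without the variance trend, 7 without the filter and 37 after removal of the length and GC trends, where 14.6% of the genes tested were lower. Centred on the members' own median, 6 members were called above and 9 below (limma, adjusted p under 0.05). Of all tested genes, 16.2% were called above and 2.71% below.

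Against PC9, PC9-AMG had 6 members higher and 0 lower (limma, adjusted p under 0.05), where 3.67% of all tested genes were higher and 3.82% lower. The median log2 difference was 0.16 in the members and -0.05 in all tested genes, and the member median was 0.22 without PC9-AMG library 1 and 0.090 without PC9-AMG library 2. The level of 58 members lay higher in both PC9-AMG libraries than in both PC9 libraries, against 24.8% of all tested genes, and 3 lay lower, against 35.0%. The small subunit had 2 of 32 members higher (median 0.19) and the large subunit 4 of 50 (median 0.13).

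Among the 6 were RPL38 (0.58, SE 0.0911, adjusted p = 0.0088, limma), RPL22L1, RPS16 (0.43), RPL28 (0.38) and RPL18 (0.33, adjusted p = 0.042, limma). RPL22L1, a paralog of RPL22, had 67.1 and 68.5 TPM in PC9-AMG, 40.2 and 50.1 TPM in PC9-BrM4, and 46.2 and 48.1 TPM in PC9. Its PC9-AMG libraries were the high ones, and the rise against PC9 was 0.52 (SE 0.123, adjusted p = 0.037, limma). RPL18 had 1882 and 1901 TPM in PC9-AMG, 1233 and 1435 TPM in PC9-BrM4, and 1484 and 1535 TPM in PC9. Centred on the members' own median, 5 members were called above and 0 below (limma, adjusted p under 0.05). Of all tested genes, 0.998% were called above and 2.48% below. The count of 6 changed with the settings: it was 0 without the variance trend, without the filter or without PC9-AMG library 2, 3 without PC9-AMG library 1, 2 and 1 without PC9 library 1 and 2, and 15 without either PC9-BrM4 library. Quantile normalization gave 8 higher and 1 lower, and removing trends with length and GC content gave 9 higher and 1 lower, where 10.6% and 9.79% of the genes tested passed.

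The comparisons share libraries, so their values are not independent and are only set side by side. RPS16 had differences of 0.79 in PC9-AMG against PC9-BrM4, -0.35 in PC9-BrM4 against PC9 and 0.43 in PC9-AMG against PC9. RPL28 had 0.72, -0.34 and 0.38 in these comparisons. RPL24, which passed in the first of them (0.51, adjusted p = 0.0047, limma) and had -0.20 and 0.31 in the others (adjusted p = 0.17 and 0.065, limma), stood at 3852 and 4430 TPM in PC9-AMG, 2691 and 3130 TPM in PC9-BrM4, and 3360 and 3300 TPM in PC9.

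Of the 5 paralogs only RPL22L1 passed, in the comparisons of PC9-AMG with PC9 and with PC9-BrM4 (0.58, adjusted p = 0.011, limma). RPL7L1, known as a factor in large subunit assembly, had 66.3 and 71.3 TPM in PC9-AMG, 82.4 and 59.3 TPM in PC9-BrM4, and 48.3 and 55.7 TPM in PC9. Both derivatives lay above PC9, with differences of 0.40 in PC9-AMG (adjusted p = 0.14, limma) and 0.42 in PC9-BrM4 (adjusted p = 0.089, limma), neither past the threshold. RPL39L, known from male germ cells, differed by 0.43 in PC9-AMG against PC9 (adjusted p = 0.06, limma), and RPS27L, a target of p53, by 0.17 (adjusted p = 0.38, limma). The median over the 5 paralogs was 0.06 in PC9-AMG against PC9-BrM4, 0.09 in PC9-BrM4 against PC9 and 0.40 in PC9-AMG against PC9, where the 77 core members had medians of 0.30, -0.16 and 0.15.

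Members with a pyrimidine start had 31 of 47 higher in PC9-AMG against PC9-BrM4 (median 0.35) and those with another listed start 8 of 19 (median 0.20). For PC9-BrM4 against PC9 the numbers lower were 10 of 47 (median -0.15) and 4 of 19 (median -0.13), and for PC9-AMG against PC9 the numbers higher were 5 of 47 (median 0.19) and 0 of 19 (median 0.11). RPS26, whose listed start has no run, had the largest difference of all. In its window, however, a run of pyrimidines begins shortly after the listed start base. The split rests on the exact listed base, so members with another listed start are not shown to lack the TOP motif. The 28 members with a small nucleolar RNA gene inside them had 17 higher in PC9-AMG against PC9-BrM4 (median 0.29), and the 54 without had 31 (median 0.30). In PC9-BrM4 against PC9, 7 of the 28 (median -0.16) and 11 of the 54 (median -0.15) were lower. In PC9-AMG against PC9, 0 of the 28 (median 0.10) and 6 of the 54 (median 0.19) were higher. Of all tested genes, 6.31% were higher in PC9-AMG against PC9-BrM4, 6.45% lower in PC9-BrM4 against PC9 and 3.67% higher in PC9-AMG against PC9. Beside a share of 3.67%, counts of 0 of 19 and 0 of 28 are not read as a difference. Whether these groups of members differed was not tested.

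The members lie on 21 chromosomes, and those with the largest differences lay close to one another on a few of them. The positions are those of the deposited tables, on hg38, and the groups by position were chosen after the values were seen. Chromosome 19 holds the most members, 12 (7 small, 5 large). Of these, 9 were higher in PC9-AMG against PC9-BrM4, with a median of 0.54, where 131 of the 1069 other tested genes on that chromosome were higher, with a median of 0.05. In PC9-BrM4 against PC9, 7 were lower (median -0.34), against 74 of the 1069 other genes (median 0.03). In PC9-AMG against PC9, 4 were higher (median 0.25), against 63 of the 1069 other genes (median 0.07).

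On chromosome 19 the difference was in the members beyond 30 Mb, of which RPS16 starts at base 39433207 and RPL28 ends at base 55392083. All 8 of them (RPS16, RPS19, RPL18, RPL13A, RPS9 and RPL28 among them) were higher in PC9-AMG against PC9-BrM4, with a median of 0.70, and 4 were higher in PC9-AMG against PC9. Of the 4 members nearer to the start of the chromosome, 1 was higher in PC9-AMG against PC9-BrM4 (median 0.18). The neighbours, taken as the 25 tested genes on each side that are no members, had medians between 0.13 and 0.32 around the 8, against -0.27 to 0.06 around the 4. The 8 exceeded their neighbours by a median of 0.41 and the 4 by a median of 0.33. Over all 82 members that median was 0.44.

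On chromosome 12, RPS26 (chr12:56041902-56044223) and RPL41 (chr12:56116590-56117832) lie next to each other, and RPL6 and RPLP0 lie beyond 112 Mb. In PC9-BrM4 against PC9 the neighbours of RPS26 had a median of -0.41 and those of RPL41 -0.40, with 21 of 50 neighbours lower and 0 higher around each, the 2 sets sharing most genes. RPS26 was 0.56 and RPL41 0.34 below these neighbours. RPL6 and RPLP0 (-0.13 and -0.15) did not pass, and their neighbours lay between 0.08 and 0.14. In bins of 10 Mb, the other tested genes of chromosome 12 had medians of -0.30 between 40 and 50 Mb, -0.39 between 50 and 60 Mb, -0.33 between 60 and 70 Mb, -0.37 between 70 and 80 Mb and -0.44 between 80 and 90 Mb (16 genes), but -0.02 between 90 and 100 Mb. The pair thus stood in a long stretch of chromosome 12 that was lower in PC9-BrM4 than in PC9. In PC9-AMG against PC9 the neighbours of RPS26 had a median of -0.05.

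On chromosome 17, RPL23, RPL19 and RPL27, between 38850068 and 43002954, were all lower in PC9-BrM4 against PC9. The other 3 members of the chromosome were not called. The neighbours of the first 3 had medians of -0.07 to -0.02, and those of the other 3 had medians of 0.08 to 0.18. The median of member minus neighbours was -0.32 in the first 3 and -0.30 in the other 3. RPL38, further along chromosome 17, had neighbours with a median of 0.17 in PC9-AMG against PC9, and was 0.40 above them. RPL7L1 lies on chromosome 6 (chr6:42879933-42886993), where its neighbours had a median of 0.18 in PC9-BrM4 against PC9, with 10 of 50 higher and 0 lower. It was 1 of the 3 members that lay above their neighbours in that comparison.

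The difference of a member went with that of its neighbours and was offset from it. Across the 82 members, the log2 difference of a member and the median of its neighbours had a Pearson correlation of 0.74 (Spearman 0.54) in PC9-AMG against PC9-BrM4, 0.70 (0.51) in PC9-BrM4 against PC9 and 0.50 (0.44) in PC9-AMG against PC9. These describe the members, which share libraries and, where they lie close together, neighbours. All 82 members lay above their neighbours in PC9-AMG against PC9-BrM4 (median 0.44), 79 lay below them in PC9-BrM4 against PC9 (median -0.26) and 77 lay above them in PC9-AMG against PC9 (median 0.20). Whether gene copy number differed between the lines was not tested.

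**Figure D4:**
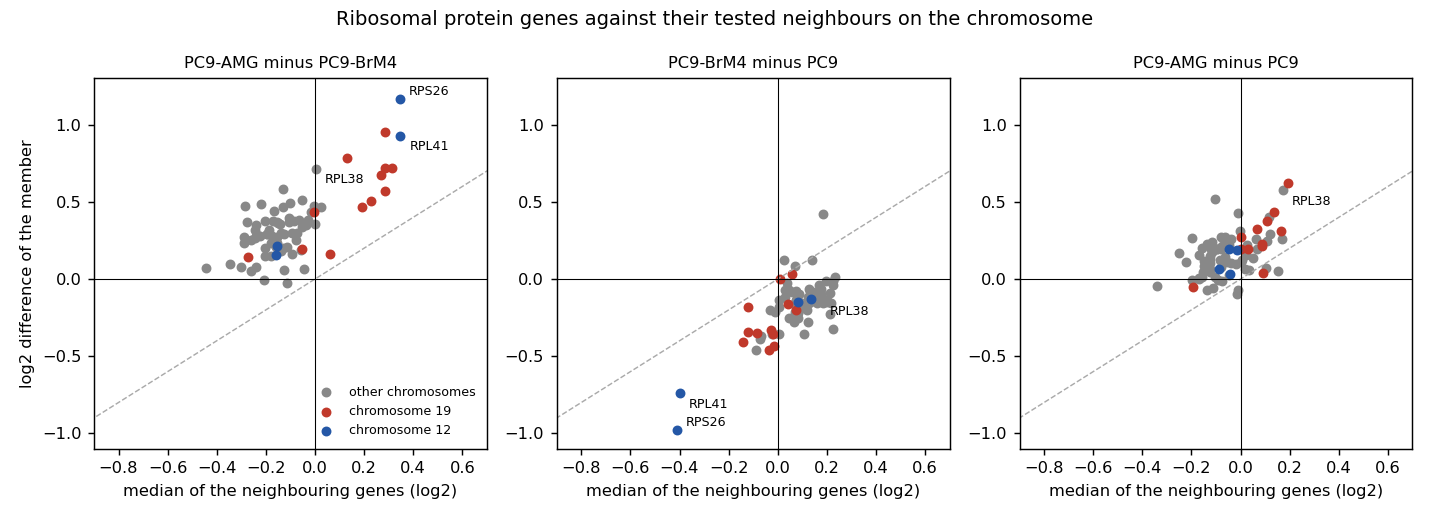
log2 difference of each of the 82 ribosomal protein genes (vertical axis) against the median log2 difference of its neighbouring tested genes (horizontal axis) in the 3 comparisons; red points lie on chromosome 19, blue points on chromosome 12, and the dashed line marks equal values. All points lie above the line in the first panel, 79 of 82 below it in the second and 77 above it in the third, with RPS26 and RPL41 at the far ends of the first and second.

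Ribosomal protein mRNAs are short, and in both comparisons with PC9-AMG shorter transcripts tended to be higher in PC9-AMG over all tested genes. The median transcript length was 1010.5 bases in the members and 2866 bases in 13713 tested genes with a known length. For some members the transcript taken was longer than the gene in the deposited tables, as for RPL37 (7686 against 3958 bases) and RPS27L (6434 against 4203 bases). Lengths of single members, and the trend removal that used them, are therefore uncertain. Over these 13713 genes the Spearman correlation of the log2 difference with length was -0.24 in PC9-AMG against PC9-BrM4, 0.04 in PC9-BrM4 against PC9 and -0.23 in PC9-AMG against PC9. With trends of length and GC content removed, the median of the members was 0.29, -0.21 and 0.10 in these comparisons, and 61, 0 and 9 members were higher while 0, 37 and 1 were lower. The share of all genes called rose too: 15.0%, 13.9% and 10.6% were higher and 13.5%, 14.6% and 9.79% lower with the trends removed.

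FAU, which also encodes RPS30, had 1092 and 1142 TPM in PC9-AMG, 814 and 915 TPM in PC9-BrM4, and 908 and 894 TPM in PC9. It was 0.37 higher in PC9-AMG than in PC9-BrM4 (adjusted p = 0.011, limma) and 0.31 higher than in PC9 (adjusted p = 0.044, limma).

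Other mRNAs of the translation machinery and other TOP genes were described from a list, and their transcript starts were not read as a set. Of 32 tested translation factor and TOP genes, 11 were higher and 1 lower in PC9-AMG against PC9-BrM4 (median 0.20), 0 higher and 10 lower in PC9-BrM4 against PC9 (median -0.15), and 2 higher and 0 lower in PC9-AMG against PC9 (median 0.01). Of all tested genes, 6.31% were higher and 12.3% lower, 9.89% higher and 6.45% lower, and 3.67% higher and 3.82% lower in these comparisons. The 2 higher in PC9-AMG against PC9 were 6.25% of the list. FAU is on this list too, and is counted among the 11 and among the 2. NACA, the alpha subunit of the nascent polypeptide-associated complex, had 1548 and 1595 TPM in PC9-AMG, 1020 and 1053 TPM in PC9-BrM4, and 1544 and 1529 TPM in PC9. The initiation factor EIF4B had 293 and 296 TPM in PC9-AMG, 216 and 198 TPM in PC9-BrM4, and 320 and 315 TPM in PC9. EIF4B fell by 0.61, the RNA-binding protein HNRNPA1 by 0.59 and NACA by 0.57 in PC9-BrM4 against PC9 (adjusted p = 0.0011, 7.7e-04 and 4.6e-04, limma). These 3 genes lie on chromosome 12, at 53006258, 54280704 and 56712427, in the same stretch as RPS26 and RPL41.

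Of 54 tested genes of ribosome biogenesis, 14 (25.9%) were higher and 1 lower in PC9-BrM4 against PC9 (median 0.26), where 9.89% of all tested genes were higher and 6.45% lower (median 0.09). In PC9-AMG against PC9, 19 (35.2%) were higher and 0 lower (median 0.34), where 3.67% of all tested genes were higher and 3.82% lower (median -0.05). In PC9-AMG against PC9-BrM4, 4 (7.41%) were higher and 1 lower (median 0.11), where 6.31% of all tested genes were higher and 12.3% lower. POLR1C, a subunit of RNA polymerases I and III, had 39.1 and 44.6 TPM in PC9-AMG, 36.3 and 37.1 TPM in PC9-BrM4, and 21.7 and 17.4 TPM in PC9, and was 1.07 higher in PC9-AMG (adjusted p = 0.0037, limma) and 0.88 higher in PC9-BrM4 (adjusted p = 0.0025, limma) than in PC9. NOP16, a factor of large subunit assembly, had 58.8 and 59.9 TPM in PC9-AMG, 45.8 and 43.2 TPM in PC9-BrM4, and 33.5 and 33.6 TPM in PC9. NOP2, an rRNA methyltransferase, was 0.87 higher in PC9-AMG than in PC9 (adjusted p = 0.01, limma). POLR1C, which starts at base 43517039 of chromosome 6, and BYSL, a factor of small subunit assembly that starts at 41921227 and was 0.55 higher in PC9-BrM4 than in PC9 (adjusted p = 0.013, limma), lie among the neighbours of RPL7L1. Whether assembly genes and ribosomal protein genes differed from each other was not tested.

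The identity of the cells was checked with markers. Of 11 lung adenocarcinoma epithelial markers, 8 or 9 reached 1 TPM in each group, and their summed level was 14650 to 15175 TPM in PC9-AMG, 12654 to 13057 TPM in PC9-BrM4 and 16694 to 16952 TPM in PC9, with SFTPB at 0 in all libraries and NKX2-1 at no more than 0.283 TPM. Of the glial markers, 10 astrocyte genes summed to 147 to 153 TPM in PC9-AMG, 128 to 136 TPM in PC9-BrM4 and 129 to 131 TPM in PC9, with GFAP and S100B at 0 in every library. APOE averaged 40.8 TPM in PC9-AMG, 5.52 TPM in PC9-BrM4 and 11.5 TPM in PC9, and SLC1A3 0.51, 2.78 and 0 TPM. GLUL was lower in PC9-AMG (32.3 TPM) than in PC9 (55.0 TPM). The 10 microglial genes summed to 13.0 to 16.4 TPM, 16.5 to 18.2 TPM and 10.4 to 10.8 TPM in these groups, with CX3CR1, TMEM119, AIF1, P2RY12 and TYROBP at 0 in every library. Nearly all of this sum was CSF1R and ITGAM. ITGAM averaged 6.58 TPM in PC9-AMG, 7.55 TPM in PC9-BrM4 and 3.38 TPM in PC9, and was called higher in both derivatives than in PC9 (adjusted p = 0.034 and 0.0075, limma). The epithelial sum was lowest in PC9-BrM4, as was that of the ribosomal protein genes, but it was highest in PC9, where that of the ribosomal protein genes was highest in PC9-AMG. KRT7 and KRT18, among the highest of these markers, lie on chromosome 12 at 52233170 and 52948871, in the stretch lower in PC9-BrM4. Of 9 tested epithelial markers, 3 (EPCAM, CDH1 and EGFR) lay above 0 and 6 below it in PC9-BrM4 against PC9. Of these 9, 0 were called higher and 4 lower, where 9.89% and 6.45% of all tested genes were. EPCAM had 846 and 856 TPM in PC9-BrM4 and 705 and 698 TPM in PC9. In PC9-AMG against PC9, 0 of 9 tested epithelial markers were higher and 2 lower (median -0.25), while the members had a median of 0.16. The part of marker levels in the results was not tested.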

How the data were processed

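Messenger RNA was sequenced from 6 samples of lung cancer cells. Per the labels' protocols, TRIzol RNA went into TruSeq Stranded mRNA libraries. The submitters' processing notes name HISAT2 2.1.0, StringTie 1.3.4d and the genome build hg38; the annotation, any filter and the strand setting are not given in the sources used here. Per the file headers, each deposited library table gives Coverage (mean read coverage per base), FPKM and TPM per gene, computed by the authors. TPM was used, and FPKM as an alternative. The members were chosen on a deposited table that sets the TPM of all libraries side by side. Rows of a symbol were summed, and 81 of 82 members were then equal in both tables within 0.001 TPM, RPL21 being the other. No counts were used, so the depth is unknown. Coverage per TPM, which grows with depth, had a median of 0.822 and 0.749 in PC9-AMG, 0.636 and 0.606 in PC9-BrM4, and 0.664 and 0.627 in PC9. Both PC9-AMG libraries thus had the highest values, so depth by this measure cannot be told apart from that group. The part of depth in the results was not tested.

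A gene was kept where 2 or more libraries had 1 TPM or more, which left 14627 genes with all 82 members among them. They were fitted on log2(TPM + 1) by limma 3.58.1 (R 4.3.3), a scale that understates changes of low genes. Group means were fitted to all 6 libraries, with 3 residual and 6.81 prior degrees of freedom, a variance trend, two-sided tests and Benjamini-Hochberg adjustment. A gene was called at an adjusted p under 0.05, and "rose", "fell", "higher" and "lower" are used of calls or of plainly stated levels. Groups of genes were described by counts and medians, without a test. Transcript length and GC content, pseudogenes and small nucleolar RNA genes came from GENCODE release 29. The fit was tested on simulated data.

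Named members are up to 12 called members with the largest differences per comparison, the 6 highest and 4 lowest, the paralogs, RPLP0, RPLP1, RPLP2, RPSA and 8 members with known roles or named in earlier work, and up to 3 called genes of each other list. RPS2, RPL37, RPL4, RPS25, RPL10, RPL22, RPL6, RPL23A, RPL27A and FAU were named after their values were seen. Results for some genes are left out of the text and not reported here. The members and all lists were chosen with earlier results of these data known. Alternatives changed the scaling (quantile normalization, median centring, TPM rescaled without the members or the 100 highest genes), the filter (none, or 5 TPM), the pseudocount (0.1 or 0.5) or the unit (FPKM). Others were moderation without trend or robust, the replicate number as a block, the table over all libraries, removal of length and GC trends, only the 4 libraries compared, and leaving out each library. Centring on the median of the members was added after seeing the data.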

Additional observations from a re-analysis of the deposited data

How the results depend on the processing

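In PC9-AMG against PC9-BrM4 the median of the members was above 0, and in PC9-BrM4 against PC9 below 0, in every alternative except, for the second, centring on the members. That centring gave medians of 0.018 (PC9-AMG against PC9-BrM4), 0.035 (PC9-BrM4 against PC9) and 0.067 (PC9-AMG against PC9), and by its construction takes the shared difference away. Median centring shifted the median of all tested genes to 0.04, -0.02 and 0.02 in these comparisons, against -0.13, 0.09 and -0.05 as reported, and it turned the calls over all tested genes in the first to 1606 higher and 900 lower, against 923 and 1797. The members' median relative to all tested genes, which median centring cannot change, was 0.43, -0.24 and 0.21 as reported and 0.16, -0.049 and 0.11 after quantile normalization. The cause of the changes given here was not tested.

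For PC9-AMG against PC9-BrM4, the members higher numbered 24 without a filter, 13 without the variance trend and 19 (with 5 lower) centred on the members, the members lower numbered 2 after quantile normalization, and the median was 0.47 after median centring, 0.16 after quantile normalization and 0.41 with FPKM; the small minus large difference was -0.046 after quantile normalization. Leaving out 1 library gave 19 to 58 higher, medians of 0.23 to 0.39 and a small minus large difference of -0.045 to 0.011. RPLP1, RPSA and RPL11 turned to -0.0028, -0.023 and -0.045 centred on the members.

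For PC9-BrM4 against PC9, the members lower numbered 7 without a filter, 2 without the trend, 37 with length and GC trends removed and 9 (with 6 higher) centred on the members, and 1 member was higher after quantile normalization and with the filter at 5 TPM. The median was -0.26 after median centring and -0.042 after quantile normalization, and the small minus large difference was 0.073 after quantile normalization and 0.056 with trends removed. Leaving out 1 library gave 3 to 31 lower, 0 to 1 higher, medians of -0.24 to -0.068 and a small minus large difference of 0.024 to 0.045.

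For PC9-AMG against PC9, the members higher numbered 3 after median centring, 0 without a filter or without the trend, 14 with the filter at 5 TPM or with only the 4 libraries compared, 12 with robust moderation and 13 with the replicate block, and 1 was lower after quantile normalization and with trends removed. The small minus large difference was 0.055 after quantile normalization and 0.041 with trends removed. Leaving out 1 library gave 0 to 15 higher, medians of 0.090 to 0.22 and a small minus large difference of 0.051 to 0.075. A lone library was assumed to vary like the other groups.

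Replicate numbers did not pair the libraries: correlations of their deviations were 0.03, -0.04 and 0.00. With the replicate block, 56 members were higher in PC9-AMG against PC9-BrM4 and 18 lower in PC9-BrM4 against PC9. Over the named members and all alternatives, 2174 values kept their call or lack of one, 195 lost it, 70 gained it and 3 reversed. The depth of the libraries is unknown, and 2 libraries a group limit the precision.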

Other observations

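Mitochondrial ribosomal protein genes encode the proteins of the separate ribosome of mitochondria. Of 80 tested, 8 were higher and 1 lower in PC9-AMG against PC9-BrM4 (median 0.04), 9 higher and 1 lower in PC9-BrM4 against PC9 (median 0.13), and 9 higher and 0 lower in PC9-AMG against PC9 (median 0.21). Of all tested genes, 6.31% were higher and 12.3% lower, 9.89% higher and 6.45% lower, and 3.67% higher and 3.82% lower in these comparisons, so the share of 11.25% higher in PC9-BrM4 against PC9 was close to that of all genes. MRPS12 had 127 and 129 TPM in PC9-AMG, 77.3 and 98.1 TPM in PC9-BrM4, and 75.2 and 80.3 TPM in PC9, and was 0.71 higher in PC9-AMG than in PC9 (adjusted p = 0.011, limma). MRPL12 had 211 and 213 TPM in PC9-AMG, 150 and 185 TPM in PC9-BrM4, and 132 and 128 TPM in PC9, and was 0.70 higher in PC9-AMG than in PC9 (adjusted p = 0.0079, limma). The call lower in PC9-AMG against PC9-BrM4 was that of MRPL45P2, a pseudogene.

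Of 19 tested regulators of mTOR and MYC signalling, which control ribosome production, 0 were higher and 2 lower in PC9-AMG against PC9-BrM4, 2 higher and 1 lower in PC9-BrM4 against PC9, and 3 higher and 2 lower in PC9-AMG against PC9. Of all tested genes, 6.31% were higher and 12.3% lower, 9.89% higher and 6.45% lower, and 3.67% higher and 3.82% lower. In PC9-BrM4 against PC9 the list's shares, 10.5% and 5.26%, were close to these. The 2 lower in PC9-AMG against PC9-BrM4 were 10.5% of the list, close to the 12.3% of all tested genes. They were TSC2 (-0.70, adjusted p = 0.033, limma) and RICTOR (-0.52, adjusted p = 0.042, limma). The PC9-AMG libraries were uneven for TSC2, with 35.2 and 21.6 TPM, against 48.3 and 42.6 TPM in PC9-BrM4. DDIT4, an inhibitor of mTORC1, averaged 441 TPM in PC9-AMG, 378 TPM in PC9-BrM4 and 609 TPM in PC9, and was lower than in PC9 in PC9-AMG by a log2 difference of -0.47 (adjusted p = 0.0093, limma) and in PC9-BrM4 by -0.69 (adjusted p = 3.0e-04, limma). SESN2, another inhibitor of mTORC1, averaged 18.0 TPM in PC9-AMG, 13.4 TPM in PC9-BrM4 and 7.87 TPM in PC9, and was higher than in PC9 in PC9-AMG by 1.10 (adjusted p = 0.004, limma) and in PC9-BrM4 by 0.70 (adjusted p = 0.01, limma).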
